A study of Mus musculus with 12 samples.

Results

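The Frizzled receptors of the mouse are encoded by 10 genes, Fzd1 to Fzd10, and all 10 had a row in the deposited count table of 25210 genes. They were taken by their symbols and followed through mammary epithelial organoids cultured with rising doses of CHIR99021. The organoids were made from mammary glands of virgin female FVB/N mice aged 8 to 11 weeks, embedded in growth factor reduced Matrigel and kept in minimal medium. Each of 3 cultures came from 1 animal and was divided over 4 treatments of 7 days, namely the solvent DMSO and CHIR99021 at 1, 1.5 or 3 µM, which gave 12 bulk libraries of polyadenylated RNA with 3 per group. No genetic change distinguishes the groups, and the DMSO libraries are the controls of every dose. The libraries held 10.1 to 24.5 M counts (M, mega).

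Frizzled proteins are WNT receptors that cross the cell membrane several times. Their extracellular cysteine-rich domain grips the lipid on a WNT ligand, and together with the co-receptors LRP5 or LRP6 they recruit Dishevelled, which blocks the complex that marks β-catenin for degradation. CHIR99021 inhibits GSK3, a kinase of that complex, and so acts below the receptor. The family holds groups of close relatives, among them Fzd1, Fzd2 and Fzd7, then Fzd5 and Fzd8, then Fzd9 and Fzd10, then Fzd3 and Fzd6. Fzd3 and Fzd6 are best known for planar cell polarity, the alignment of cells within a sheet. In the mammary gland, WNT signalling is known for its part in basal and stem cell behaviour.

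Across the family the receptors moved in different directions. Fzd10 rose from the lowest level of the family in DMSO and Fzd6 rose to the highest mean level at 3 µM. Fzd4 and Fzd9 had the lowest log2 fold changes at 3 µM (−3.38 and −2.97), followed by Fzd1, Fzd8, Fzd2 and Fzd3. Fzd5 and Fzd7 did not pass the test at any dose. In edgeR's quasi-likelihood test with Benjamini-Hochberg adjustment over 15316 genes, 8 of the 10 members were called at an adjusted p under 0.05 at 3 µM against DMSO, 2 higher and 6 lower. Of all genes tested, 57.5% were called in that comparison, 29.9% higher and 27.7% lower, so a count of 8 among 10 is not in itself particular to the family, and with the animal as a block the count was again 8 against 68.9% of all genes. The median log2 fold change was −0.77 over the members and −0.03 over all genes. At 1.5 µM 3 members were called, 1 higher and 2 lower, against 27.3% of all genes (15.4% higher, 11.8% lower), and the animal block called 5 (2 higher, 3 lower) against 46.7% of all genes. At 1 µM 0 members were called in edgeR, with 1 at an unadjusted p under 0.05, against 0.242% of all genes (0.189% higher, 0.0522% lower). The block, with 5.61% of all genes called, and DESeq2 each called 1 member there, in both cases Fzd4. The 3 comparisons share their DMSO libraries and are not independent of each other. Unless the block is named, the comparisons of doses and the slopes were fitted without the animal. This includes every fit with a library or culture left out, so a call lost there is one of the unpaired fit. Such fits were not run with the block.

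**Figure D1:**
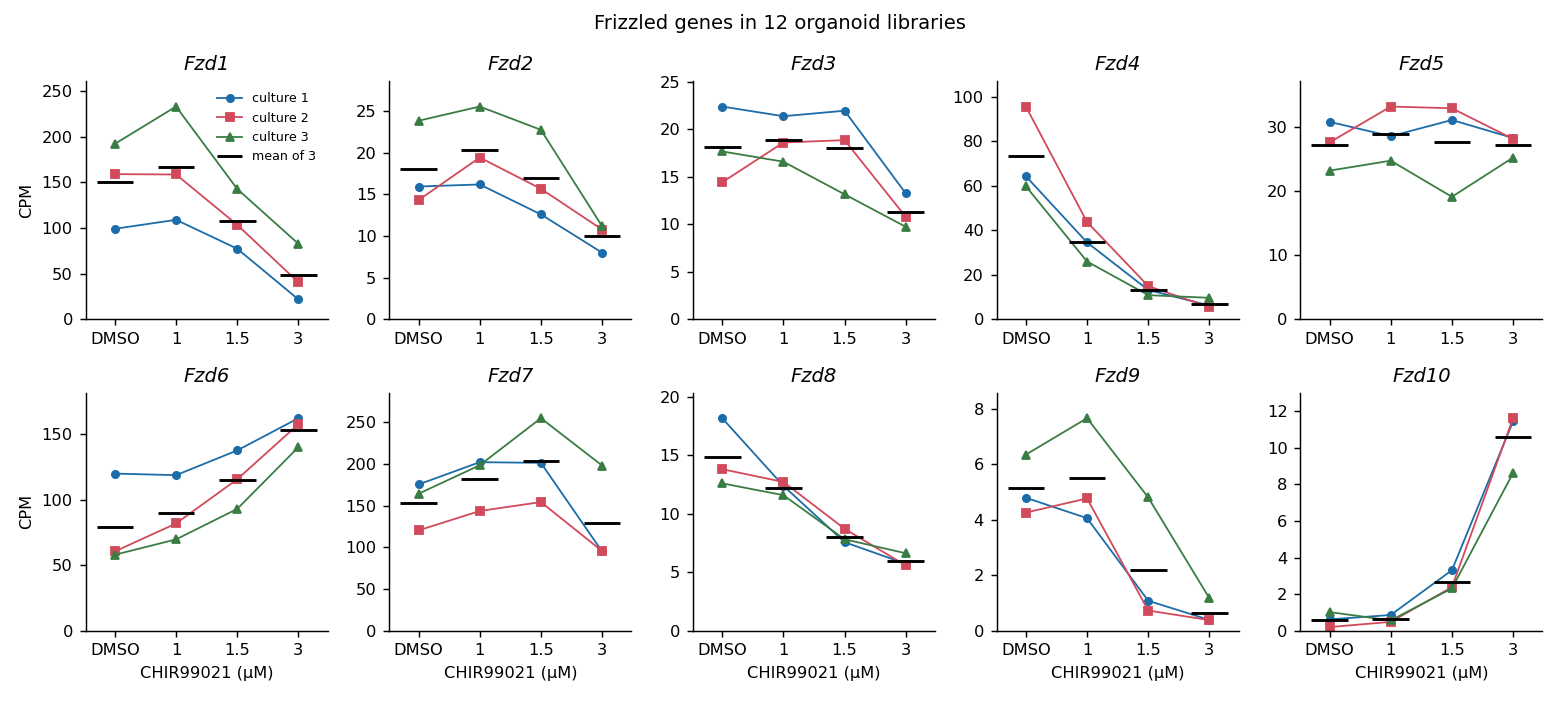
CPM (counts scaled to a library of 1 M, with TMM-scaled library sizes, vertical axis from 0, a different scale in each panel) of the 10 Frizzled genes against CHIR99021 dose (horizontal axis, equally spaced groups). Coloured lines join the 4 libraries of each culture and black bars are the means of 3 libraries. Fzd10 climbs from 0.616 to 10.6 CPM and Fzd4 drops from 73.2 to 7.03 CPM, while Fzd5 has a mean of 27.2 CPM both in DMSO and at 3 µM.

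Levels within a gene are given as CPM, the count scaled to a library of 1 M counts. Because a count depends on transcript length, levels of different receptors were compared as RPKM, the CPM per kb of the gene's merged exons. In DMSO the order by mean RPKM was Fzd1 at 35.8 ± 11.3 (SD, n = 3, as for all values with ± below unless SE is stated), Fzd7 at 33.8 ± 6.41, Fzd6 at 16.5 ± 7.27, Fzd4 at 10.9 ± 2.9, Fzd2 at 4.93 ± 1.39, Fzd5 at 3.94 ± 0.554, Fzd8 at 2.49 ± 0.491, Fzd9 at 2.24 ± 0.474, Fzd3 at 1.42 ± 0.313 and Fzd10 at 0.190 ± 0.126. Of neighbours in this order, the ranges over libraries overlapped for Fzd1 and Fzd7, for Fzd6 and Fzd4, for Fzd2 and Fzd5, and for Fzd8 and Fzd9. At 3 µM Fzd6 led with 31.8 ± 2.42 RPKM, ahead of Fzd7 at 28.6 ± 13.1, and these ranges overlapped. Fzd1 followed at 11.5 ± 7.44, and below it came Fzd5 at 3.94 ± 0.249, Fzd10 at 3.25 ± 0.517, Fzd2 at 2.73 ± 0.473, Fzd4 at 1.05 ± 0.334, Fzd8 at 1.00 ± 0.0946, Fzd3 at 0.879 ± 0.141 and Fzd9 at 0.284 ± 0.198. Of these lower neighbours, the ranges overlapped for Fzd10 and Fzd2, for Fzd4 and Fzd8, and for Fzd8 and Fzd3. Fzd10 thus moved from the last place to the fifth, and Fzd4 from the fourth to the seventh. The merged exons of Fzd3 in GENCODE M21 span 12.8 kb, and its RPKM is lower than it would be for a shorter transcript. For some members the M21 gene is longer than the gene in the count table. Fzd8 spans 9212163 to 9218136 in M21 and 9212856 to 9216201 in the count table, and Fzd4 and Fzd3 also extend further in M21. Their RPKM may thus be too low beside the others. The order, places and shares given here hold for M21 lengths, and other lengths were not tried.

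Summed over the 10 genes, Frizzled RPKM had a mean of 112 ± 7.46 in the DMSO group. It was 119 ± 13.7 with 1 µM CHIR99021, 110 ± 14.1 with 1.5 µM and 85 ± 18 with 3 µM. The sums in the 3 DMSO libraries were 113, 105 and 119 in cultures 1, 2 and 3, and those at 3 µM were 72.7, 76.8 and 106. The groups overlap, since culture 3 at 3 µM lay above culture 2 in DMSO, although within each culture the sum was lower at 3 µM than in DMSO. Within that sum, Fzd1 made up 31.9 ± 9.5% in DMSO and 12.8 ± 5.77% at 3 µM, and Fzd6 made up 14.7 ± 6.45% and 38.8 ± 9.96%. Fzd7 made up 30 ± 4.48% and 32.6 ± 7.65%. Fzd4 went from 9.85 ± 3.3% to 1.22 ± 0.156% and Fzd10 from 0.164 ± 0.102% to 4.00 ± 1.3%. These shares do not depend on how the libraries are scaled, but they do depend on the exon lengths used.

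**Figure D2:**
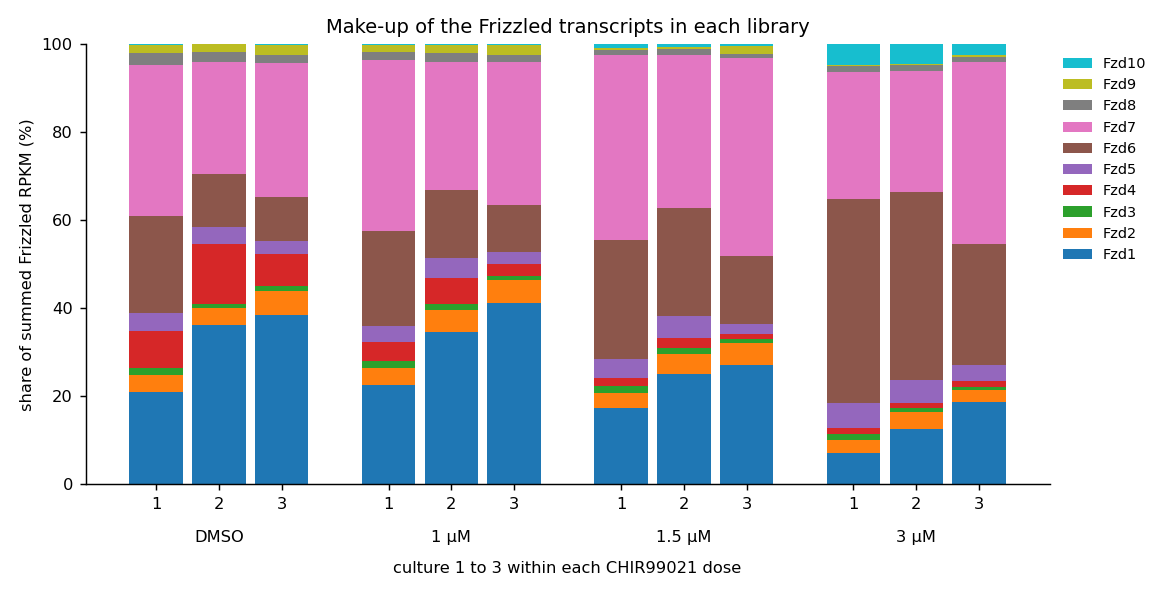
Share of each Frizzled gene in the summed Frizzled RPKM (vertical axis, %) in each of the 12 libraries, grouped by CHIR99021 dose with cultures 1 to 3 side by side. The Fzd6 part widens from 14.7% on average in DMSO to 38.8% at 3 µM and the Fzd1 part narrows from 31.9% to 12.8%.

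Fzd1, Fzd2 and Fzd7 are the receptors most alike in sequence, and their transcripts share exact stretches that a read inside them cannot assign. The longest runs shared by pairs of members were found by comparing GENCODE M21 transcripts (GRCm38). They are shown as places where a read inside them fits both genes of the pair. They do not bound how far reads of these 3 genes could be confused, since stretches that differ in a few bases were not searched for. All of these runs lie in the coding sequence, with no capitals because no base within them differs between the pair.
Fzd1 and Fzd2, 47 bases: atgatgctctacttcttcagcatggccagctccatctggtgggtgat
Fzd1 and Fzd7, 47 bases: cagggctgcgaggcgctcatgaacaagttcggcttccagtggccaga
Fzd2 and Fzd7, 38 bases: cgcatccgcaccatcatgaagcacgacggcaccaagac
The first run starts at base 1204 of the Fzd1 coding sequence and base 1009 of that of Fzd2, the second at base 571 of Fzd1 and base 385 of Fzd7, and the third at base 1333 of Fzd2 and base 1339 of Fzd7. The other 42 pairs of members shared at most 32 bases. The read length is not given in the sources used here.

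Fzd1 (ENSMUSG00000044674, chromosome 5, 4753873 to 4758035, a gene of 1 exon) was the most abundant receptor per kb in DMSO. Its CPM in cultures 1, 2 and 3 were 99.1, 159 and 192 in DMSO, 109, 159 and 233 at 1 µM, 77.2, 103 and 143 at 1.5 µM and 21.6, 40.4 and 82.6 at 3 µM. Culture 1 was lowest and culture 3 highest at every dose, and the 3 µM libraries lay below all DMSO libraries. The log2 fold change at 3 µM was −1.64 ± 0.478 (SE, adjusted p = 0.0142 in edgeR), a 3.11-fold lower level, and it was not called when the 3 µM library of culture 2 was left out (adjusted p = 0.0507). Without the 3 µM library of culture 3 it was −2.30 (adjusted p = 0.00232). With the animal block in edgeR it was −1.76 (adjusted p = 3.46e-05). At 1.5 µM the groups overlapped and the log2 fold change was −0.48 ± 0.465 (SE, adjusted p = 0.473).

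Fzd2 (ENSMUSG00000050288, chromosome 11, 102604396 to 102608058, 1 exon) was a less abundant relative with a similar course. Its CPM were 16.0, 14.3 and 23.9 in DMSO, 16.2, 19.4 and 25.6 at 1 µM, 12.6, 15.7 and 22.8 at 1.5 µM and 8.00, 10.8 and 11.2 at 3 µM. The 3 µM libraries lay below all others, and the doses below 3 µM overlapped with DMSO. At 3 µM it was 1.81-fold lower, with a log2 fold change of −0.85 ± 0.278 (SE, adjusted p = 0.0229). Leaving out the 3 µM library of culture 1 ended that call (adjusted p = 0.0714), as did leaving out the DMSO library of culture 3 (adjusted p = 0.0851). With the animal block in edgeR the value was −0.84 (adjusted p = 0.000595).

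Fzd7 (ENSMUSG00000041075, chromosome 1, 59482424 to 59486955, 1 exon), known from work on stem and progenitor cells in several epithelia, had the highest mean RPKM of the family at 1 and 1.5 µM (40 and 44.9), where its range overlapped that of Fzd1 (means 39.8 and 25.7). Its CPM were 175, 120 and 164 in DMSO, 202, 144 and 198 at 1 µM, 201, 154 and 255 at 1.5 µM and 95.0, 95.6 and 198 at 3 µM. Within each culture it was higher at 1 and 1.5 µM than in DMSO, and at 3 µM it was below DMSO in cultures 1 and 2 and above it in culture 3. None of these differences from DMSO passed the test, with log2 fold changes of 0.24 ± 0.304, 0.41 ± 0.304 and −0.24 ± 0.304 (SE, adjusted p = 0.828, 0.344 and 0.513). With the 3 µM library of culture 3 left out it was called lower at 3 µM, at −0.71 (adjusted p = 0.029). From 1.5 to 3 µM the value was −0.65 ± 0.305 (SE, adjusted p = 0.133), and with the animal block −0.68 ± 0.185 (SE, adjusted p = 0.0159).

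Fzd8 (ENSMUSG00000036904, chromosome 18, 9212856 to 9216201, 1 exon) fell with little spread between cultures. Its CPM were 18.2, 13.8 and 12.6 in DMSO, 12.4, 12.7 and 11.6 at 1 µM, 7.58, 8.72 and 7.82 at 1.5 µM and 5.72, 5.58 and 6.63 at 3 µM. The libraries at 1, 1.5 and 3 µM did not overlap each other. It was 1.85-fold lower at 1.5 µM (log2 fold change −0.89 ± 0.16 SE, adjusted p = 0.00333) and 2.49-fold lower at 3 µM (−1.31 ± 0.163 SE, adjusted p = 9.45e-05), and both calls held in all 20 alternatives tried. Its close relative Fzd5 (ENSMUSG00000045005, chromosome 1, 64730558 to 64737751, 2 exon blocks) had CPM of 30.8, 27.6 and 23.2 in DMSO, 28.6, 33.2 and 24.8 at 1 µM, 31.1, 33.0 and 19.1 at 1.5 µM and 28.3, 28.2 and 25.3 at 3 µM. All groups overlapped. The log2 fold change of Fzd5 at 3 µM was 0.00 ± 0.2 (SE, adjusted p = 0.998) and ran from −0.20 to 0.10 over the alternatives, of which the scaling by library size alone gave −0.20.

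Fzd4 (ENSMUSG00000049791, chromosome 7, 89404366 to 89410110, 2 exon blocks) is the receptor of Norrin as well as of WNT ligands and is best known from blood vessel growth in the retina. Its CPM in cultures 1, 2 and 3 were 64.3, 95.6 and 59.7 in DMSO, 34.5, 43.7 and 25.9 at 1 µM, 13.1, 14.9 and 10.8 at 1.5 µM and 6.12, 5.39 and 9.59 at 3 µM. Each dose lay wholly below the dose before it, and Fzd4 was the member for which none of the 5 comparisons of groups overlapped. Over all genes tested, the share not overlapping was 19.4% for 1 µM against DMSO, 45.6% for 1.5 µM against DMSO, 60.8% for 3 µM against DMSO, 31.2% for 1.5 against 1 µM and 42.8% for 3 against 1.5 µM. The log2 fold change was −1.08 ± 0.268 at 1 µM (SE, adjusted p = 0.145), −2.50 ± 0.282 at 1.5 µM (adjusted p = 0.000426) and −3.38 ± 0.295 at 3 µM (adjusted p = 1.27e-05), the last a 10.4-fold lower level. At 1 µM the adjusted p was 0.0386 with the animal block and 0.00797 in DESeq2. Within cultures 1, 2 and 3 the level at 3 µM was 10.5-fold, 17.7-fold and 6.23-fold lower than in the culture's own DMSO library. Per µM, the slope was −1.15 ± 0.125 on the log2 scale (SE, adjusted p = 1.87e-05), and it held in all 19 alternatives fitted.

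Fzd10 (ENSMUSG00000081683, chromosome 5, 128600844 to 128604093, 1 exon) was barely counted in DMSO and became the fifth receptor of the family at 3 µM. Its counts in cultures 1, 2 and 3 were 14, 2 and 19 in DMSO, 17, 10 and 10 at 1 µM, 52, 62 and 40 at 1.5 µM and 146, 181 and 125 at 3 µM. As CPM these were 0.622, 0.203 and 1.02 in DMSO, 0.863, 0.487 and 0.568 at 1 µM, 3.31, 2.38 and 2.32 at 1.5 µM and 11.5, 11.6 and 8.63 at 3 µM. DMSO and 1 µM overlapped, while 1.5 µM lay above both and 3 µM above all. The log2 fold change was −0.02 ± 0.431 at 1 µM (SE, adjusted p = 0.995), 2.03 ± 0.427 at 1.5 µM (adjusted p = 0.00685) and 4.02 ± 0.446 at 3 µM (adjusted p = 4.84e-05), the last a 16.2-fold higher level. From 1.5 to 3 µM it gained a further 1.98 ± 0.397 (SE, adjusted p = 0.00524). The calls at 1.5 and 3 µM against DMSO held in all 20 alternatives tried, and with culture 3 left out the value at 3 µM was 4.61 (adjusted p = 0.000424).

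Fzd9 (ENSMUSG00000049551, chromosome 5, 135248938 to 135251230, 1 exon), the closest relative of Fzd10, went the other way. Its counts were 108, 42 and 118 in DMSO, 80, 98 and 135 at 1 µM, 17, 19 and 83 at 1.5 µM and 5, 6 and 17 at 3 µM. At 1.5 µM culture 3 stood apart with 4.81 CPM against 1.08 and 0.730 in cultures 1 and 2. The log2 fold change at 3 µM was −2.97 ± 0.732 (SE, adjusted p = 0.00595), 7.83-fold lower, and all 3 µM libraries lay below all DMSO libraries. Without the 3 µM library of culture 3 it was −3.73 (adjusted p = 0.0053). At 1.5 µM it was −1.23 ± 0.661 (SE, adjusted p = 0.191), and it was called with the animal block (−1.52, adjusted p = 0.0114) and with the 1.5 µM library of culture 3 left out (−2.51, adjusted p = 0.0102). Fzd9 and Fzd10 each exceeded the filter's CPM minimum in 10 of the 12 libraries, Fzd9 in 1 of 3 at 3 µM and Fzd10 in 2 of 3 in DMSO and 2 of 3 at 1 µM, and the other 8 members exceeded it in all 12.

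**Figure D3:**
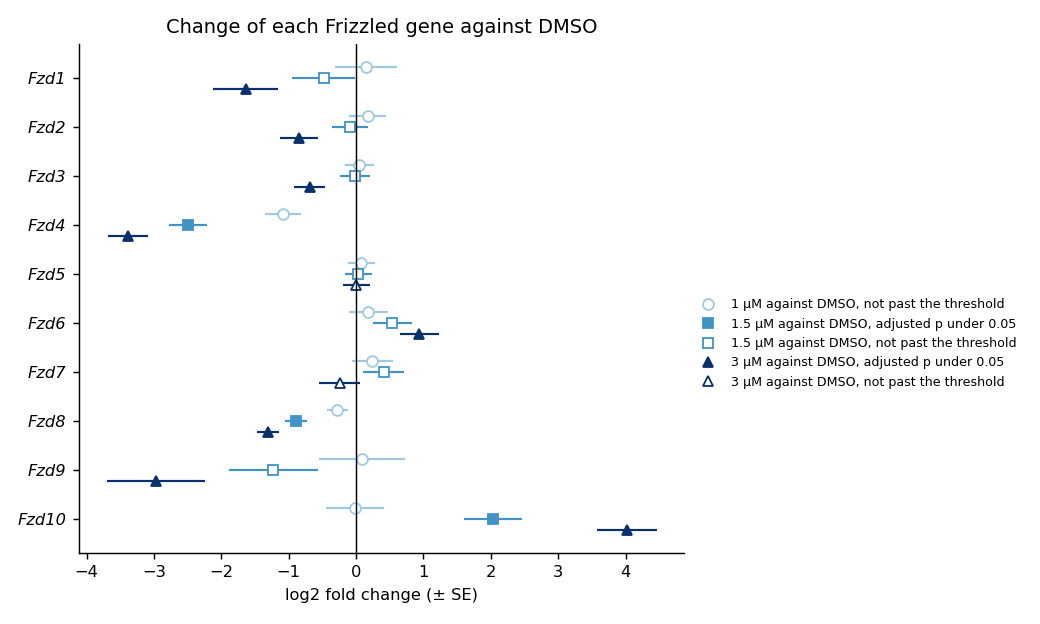
Log2 fold change of each Frizzled gene against DMSO (horizontal axis) with its SE, at 1 µM (circles), 1.5 µM (squares) and 3 µM (triangles), with 3 libraries per group. Filled symbols passed an adjusted p of 0.05 in edgeR. At 1 µM no symbol is filled, at 1.5 µM 3 are, and at 3 µM 8 are, with Fzd10 at 4.02 and Fzd4 at −3.38 as the outermost.

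Fzd6 (ENSMUSG00000022297, chromosome 15, 39006280 to 39038186, 9 exon blocks) had CPM of 120, 60.6 and 58.1 in DMSO, 119, 81.9 and 69.8 at 1 µM, 138, 116 and 93.1 at 1.5 µM and 162, 158 and 140 at 3 µM. All 3 µM libraries lay above all DMSO libraries, and culture 1 was highest at every dose. The rise at 3 µM was 1.92-fold, a log2 fold change of 0.94 ± 0.292 (SE, adjusted p = 0.0186). Against its own DMSO library it was 1.35-fold in culture 1, 2.60-fold in culture 2 and 2.41-fold in culture 3. The difference in slope between cultures did not pass the test in edgeR (adjusted p = 0.47). The call at 3 µM was lost with library size as the only scaling (adjusted p = 0.0631), with the 3 µM library of culture 1 or 2 left out (adjusted p = 0.0561 and 0.0537) and with the DMSO library of culture 2 or 3 left out (adjusted p = 0.0677 and 0.0771). With the animal block in edgeR the value at 3 µM was 1.02 (adjusted p = 0.000445). At 1.5 µM the log2 fold change was 0.54 ± 0.291 (SE, adjusted p = 0.196), with the block 0.58 (adjusted p = 0.0155) and without the DMSO library of culture 1 0.96 (adjusted p = 0.016). The slope per µM, 0.33 ± 0.0875 on the log2 scale (SE, adjusted p = 0.00695), held in all 19 alternatives fitted.

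Fzd3 (ENSMUSG00000007989, chromosome 14, 65201026 to 65262463, 8 exon blocks), the relative of Fzd6, fell at 3 µM. Its CPM were 22.4, 14.4 and 17.7 in DMSO, 21.4, 18.6 and 16.6 at 1 µM, 22, 18.9 and 13.2 at 1.5 µM and 13.3, 10.8 and 9.73 at 3 µM. The 3 µM libraries lay below all DMSO libraries, and the other doses overlapped with DMSO. The level was 1.62-fold lower at 3 µM, a log2 fold change of −0.69 ± 0.224 (SE, adjusted p = 0.0223). The call did not hold without the DMSO library of culture 1 (adjusted p = 0.0875) or without the 3 µM library of culture 2 or 3 (adjusted p = 0.0575 and 0.0555). With the animal block in edgeR the value was −0.70 (adjusted p = 0.00206). Fzd3, Fzd5 and Fzd6 overlap genes on the opposite strand (Gm9086, Gm38058 and Gm26704), and Fzd3 also overlaps Gm27263 on its own strand. The libraries are stranded per the labels' protocols, but whether counting used the strand is not given in the sources used here.

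Between neighbouring doses, 2 members were called from 1 to 1.5 µM against 5.43% of all genes (4.43% higher, 0.992% lower). These were Fzd10 (log2 fold change 2.05 ± 0.423 SE, adjusted p = 0.025) and Fzd4 (−1.42 ± 0.273 SE, adjusted p = 0.0197). The animal block called 5, with Fzd1, Fzd8 and Fzd9 lower as well, against 21.9% of all genes. Leaving out the library of culture 1 or of culture 2 at either of these doses gave a count of 0, and leaving out that of culture 3 at 1 µM gave 1. In those 5 fits 0.914% to 1.54% of all genes were called. From 1.5 to 3 µM 3 members were called against 29.7% of all genes (17% higher, 12.7% lower), Fzd10 higher, and Fzd4 (−0.88 ± 0.278 SE, adjusted p = 0.0384) and Fzd3 (−0.68 ± 0.224 SE, adjusted p = 0.0445) lower. The block called 8 in this step (2 higher, 6 lower) against 46.7% of all genes, adding Fzd6 among the higher and Fzd1, Fzd2, Fzd7 and Fzd9 among the lower. The count was 1 with culture 1 missing at 1 µM or culture 2 missing at 1.5 or at 3 µM, and 6 with culture 3 missing at 3 µM, against 27.1%, 19.6%, 19.4% and 37% of all genes in that order. The slope over all 12 libraries was called for 8 members, 2 rising and 6 falling, against 58.2% of all genes (30.2% rising, 28% falling), and the block also called 8, against 64.5%. The slope of Fzd2 (−0.32 ± 0.107 SE, adjusted p = 0.023) was lost with culture 1 or 2 missing at 3 µM (adjusted p = 0.0795 and 0.0567) and with culture 3 missing in DMSO (adjusted p = 0.0527). That of Fzd3 (−0.24 ± 0.0839 SE, adjusted p = 0.0245) was lost with culture 1 missing in DMSO (adjusted p = 0.0607), with culture 2 or 3 missing at 3 µM (adjusted p = 0.0713 and 0.0692) and with culture 3 left out throughout (adjusted p = 0.105).

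The 3 cultures differed in their Frizzled levels over and above dose. In a model with dose group and culture, 7 of the 10 members differed between cultures against 28.8% of all genes, and the 3 that were not called were Fzd4, Fzd8 and Fzd10. Leaving out single libraries gave counts from 2 to 7, with 2 when culture 1 was missing at 1 µM, 3 when culture 1 or 3 was missing at 1.5 µM, and 4 when culture 2 or 3 was missing at 1 µM or culture 2 at 3 µM. Those 6 fits called 17.1% to 26.1% of all genes. Fzd4 was called with culture 3 missing at 3 µM (adjusted p = 0.0108). Fzd1, Fzd2 and Fzd9 were highest in culture 3 at every dose, and Fzd6 was highest in culture 1 at every dose. The test of whether slopes differ between cultures called 0 members and 0% of all genes in edgeR (1 member, Fzd6, and 1230 genes at an unadjusted p under 0.05), so its count says nothing on whether the members' slopes are alike. DESeq2 called 1.51% of all genes and 0 members. Against the culture's own DMSO library, Fzd10 at 3 µM was 18.4-fold higher in culture 1 and 8.43-fold in culture 3, and no fold is given for culture 2, whose DMSO library held 2 counts.

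Cell type markers moved with dose and with culture, and in bulk RNA a smaller number of cells of a type cannot be told apart from less RNA per cell. The marker counts below stand against 57.5% of all genes called at 3 µM (29.9% higher, 27.7% lower), and 68.9% with the animal block. Epithelial markers (Epcam, Cdh1, Krt8, Krt18) summed to 1870 to 2980 CPM in DMSO and 2010 to 2260 CPM at 3 µM, with 2 of 4 called lower. The 8 basal or myoepithelial markers summed to 2100 to 3340 and 14500 to 31300 CPM, with 3 called higher (Krt5, Krt14, Trp63) and 5 lower (Acta2, Myh11, Mylk, Cnn1, Oxtr). Of 6 markers of luminal hormone-sensing cells 1 was called higher and 3 lower, and of 8 of luminal progenitor or alveolar cells 1 higher and 2 lower. The 5 endothelial markers summed to 243 to 503 CPM in DMSO and 27.1 to 86.6 CPM at 3 µM, and 5 of 5 were called lower at 3 µM. The 4 pericyte markers summed to 132 to 507 and 19.1 to 110 CPM, with 3 of 4 called lower, and the 5 macrophage or other immune markers to 256 to 2520 and 39.0 to 116 CPM, with 4 of 5 called lower. The 6 fibroblast markers summed to 1550, 7170 and 20200 CPM in cultures 1, 2 and 3 in DMSO and to 164, 923 and 4480 CPM at 3 µM, with 0 of 6 called, and 5 with the animal block. The 6 squamous markers summed to 4.27 to 23.3 CPM in DMSO and 2100 to 18000 CPM at 3 µM, with 6 of 6 called higher. None of these genes was at 0 in every library of a group. The members that fell at 3 µM thus did so in libraries where endothelial, pericyte and immune markers were also called lower. Fzd6 and Fzd10 rose in the same libraries, where squamous markers were called higher. The basal or myoepithelial list went both ways there, with 5 genes called lower and 3 called higher, and its sum was higher. Fzd1, Fzd2 and Fzd9 had their highest values in culture 3 at every dose, as did the fibroblast, pericyte and immune sums. Of the 6 fibroblast genes, Dcn had a higher mean at 3 µM than in DMSO (400 ± 584 against 294 ± 300 CPM). The part of these cell types in the Frizzled values was not tested. With culture 3 left out, 6 members were called at 3 µM (1 higher, 5 lower) against 58.1% of all genes, and Fzd3 (−0.63, adjusted p = 0.0657) and Fzd6 (0.81, adjusted p = 0.0782) were not.

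**Figure D4:**
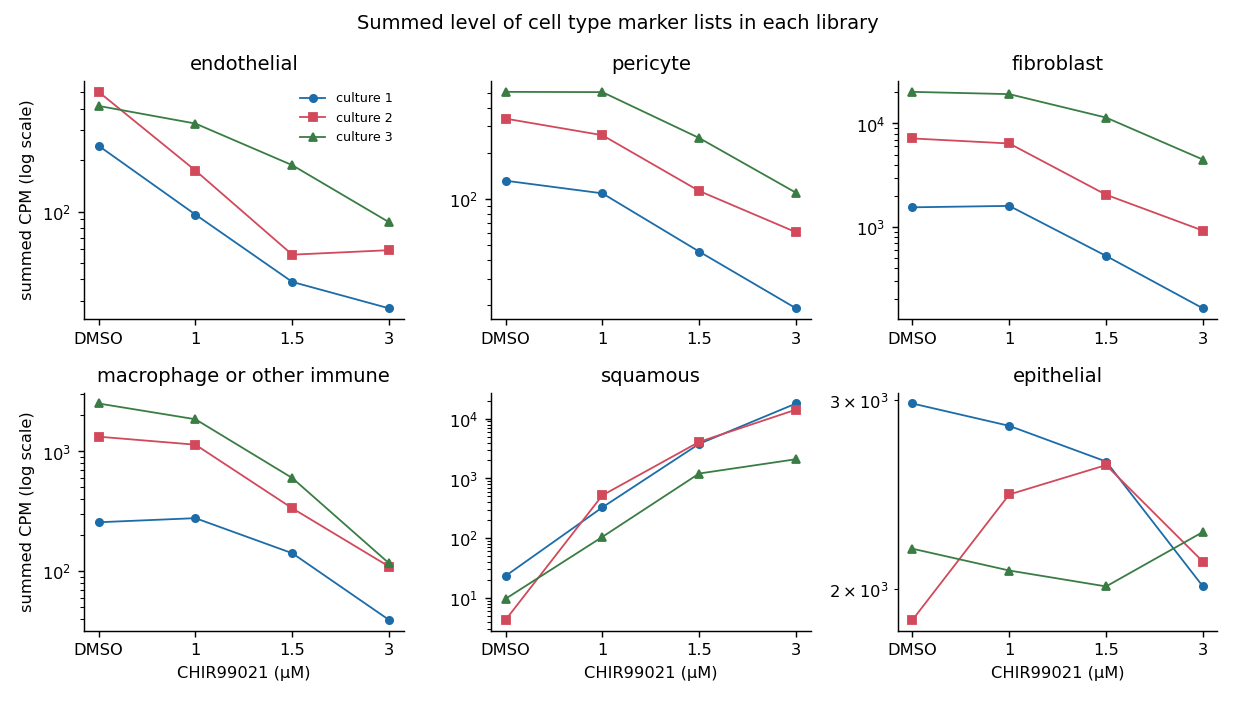
Summed CPM of 6 marker lists in each library (vertical axes logarithmic, ranges differ between panels) against CHIR99021 dose, with a line per culture. The endothelial, pericyte, fibroblast and immune sums are lower at 3 µM than in DMSO in each culture, and the squamous sums are higher. Culture 3 has the highest fibroblast, pericyte and immune sums at each dose, with fibroblast sums of 20200 CPM in DMSO and 4480 CPM at 3 µM.

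The proteins that work beside the receptors were followed as lists, chosen with earlier results of these data known. At 3 µM 57.5% of all genes were called (29.9% higher, 27.7% lower), and 68.9% with the animal block. The share was 48.9% to 60.7% over single libraries left out, 58.1% with culture 3 left out and 33.4% with no filter. A list's count is therefore not in itself a result about the list. Of 7 co-receptors tested, 1 was called higher and 2 lower at 3 µM, with a list median of −0.59 on the log2 scale against −0.03 over all genes. With the animal block 4 were called, Ror2 among them (−1.03 ± 0.546 SE and adjusted p = 0.13 without the block, 0.000218 with it). Lrp6, the partner of Frizzled in β-catenin signalling, fell from 287 ± 32.6 to 168 ± 25.9 CPM (log2 fold change −0.77 ± 0.146 SE, adjusted p = 0.0013), and Ptk7, a co-receptor tied to planar polarity, rose from 150 ± 14.0 to 196 ± 34.3 CPM (0.39 ± 0.14 SE, adjusted p = 0.0353). Musk, at 1.76 ± 1.3 CPM in DMSO, was at 0.113 ± 0.144 CPM at 3 µM (adjusted p = 0.0222). Its call was lost in 5 of 19 alternatives (adjusted p = 0.0573 to 0.0752), which were culture 2 or 3 missing in DMSO, culture 1 or 2 missing at 3 µM, and culture 3 left out. Ptk7 was not called in 10 of 20 alternatives, among them library size alone (0.19, adjusted p = 0.31). The list's count was 1 with culture 2 or 3 missing in DMSO, culture 2 missing at 3 µM or culture 3 left out throughout.

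Frizzled proteins are removed from the membrane by the ubiquitin ligases ZNRF3 and RNF43, which R-spondins restrain through LGR receptors. Of 8 genes of this axis tested, 2 were called higher and 4 lower at 3 µM (list median −1.69), the block called 7, and with culture 1 missing at 3 µM 3 were called. Znrf3 rose from 15.0 ± 0.891 to 36.2 ± 8.36 CPM (log2 fold change 1.27 ± 0.169 SE, adjusted p = 0.000146). Lgr5 fell from 187 ± 39.6 to 0.288 ± 0.168 CPM (adjusted p = 8.92e-07), and Lgr4 had a log2 fold change of −1.04 ± 0.306 (SE, adjusted p = 0.0145), not called with culture 1 missing in DMSO (adjusted p = 0.0565).

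Among secreted proteins that bind WNT, 2 of 4 tested were called lower at 3 µM (list median −3.26). Sfrp1, whose product carries a Frizzled-like cysteine-rich domain, fell from 217 ± 157 to 9.20 ± 6.68 CPM (adjusted p = 0.00415), and Sfrp2 from 81.7 ± 115 to 1.57 ± 1.25 CPM (adjusted p = 0.0374). Without the DMSO library of culture 3 the log2 fold change of Sfrp1 was −3.86, and without the 3 µM library of that culture −5.36, against −4.55 in the full fit. Sfrp2 (−5.67 in the full fit) was not called with culture 3 missing in DMSO (−3.32, adjusted p = 0.165) nor in 5 other alternatives. Wif1 had a log2 fold change of 1.01 ± 0.408 (SE, adjusted p = 0.0551, with the block 0.0408). The list's count was 1 with culture 3 missing in DMSO, culture 1 or 2 missing at 3 µM, or no filter.

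Of the Fzd4 partners and WNT7 cofactors, 3 of 4 were called lower at 3 µM (list median −1.75), and with the block 4. Tspan12, a tetraspanin that works with Fzd4 and Norrin, fell from 69.7 ± 30.7 to 29.7 ± 2.48 CPM (log2 fold change −1.23 ± 0.341 SE, adjusted p = 0.0111). Ndp, which encodes Norrin, was at 1.35 ± 0.596 CPM in DMSO and 0.0491 ± 0.0428 CPM at 3 µM. It passed the filter on low counts only through the DMSO group, where it is high. Its call, which is among the 3 lower, is therefore no support and no p is given. Reck had a log2 fold change of −1.91 ± 0.747 (SE, adjusted p = 0.0489) and was not called in 10 of 20 alternatives, with adjusted p up to 0.159 when culture 3 was missing in DMSO. Without the 3 µM library of culture 3 it was −3.05 (adjusted p = 0.00769).

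Of the 3 Dishevelled genes, Dvl1 rose from 87.6 ± 3.83 to 178 ± 10.1 CPM (log2 fold change 1.03 ± 0.0791 SE, adjusted p = 5.93e-06) and Dvl2 by 0.32 ± 0.0948 (SE, adjusted p = 0.015), while Dvl3 was at −0.06 ± 0.116 (SE, adjusted p = 0.661). Dvl2 was not called in 7 of 20 alternatives, among them library size alone (0.12, adjusted p = 0.356), culture 3 missing in DMSO (adjusted p = 0.0559) and culture 3 missing at 3 µM (adjusted p = 0.051). Of 8 planar polarity genes 2 were called higher and 0 lower (list median 0.19), and with the block 5, 4 higher and 1 lower. Vangl2 rose from 16.2 ± 1.49 to 39.4 ± 1.66 CPM (1.27 ± 0.112 SE, adjusted p = 1.24e-05) and Celsr1 from 26.2 ± 8.39 to 60.9 ± 18.8 CPM (1.21 ± 0.361 SE, adjusted p = 0.0157), and Prickle3 was at 0.49 ± 0.222 (SE, adjusted p = 0.0799). Celsr1 was not called with culture 2 or 3 missing in DMSO (adjusted p = 0.0578 and 0.0585) or culture 1 or 2 missing at 3 µM (adjusted p = 0.0513 and 0.0612), and 1 of the 8 was called in these fits except with culture 1 missing at 3 µM, where Prickle3 was called as well (adjusted p = 0.0408).

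Of the WNT ligands, 14 of 19 were tested, and 5 were called higher and 5 lower at 3 µM, with 11 called under the block. The list median was −0.16, or −0.17 with Wnt3a and Wnt7a, which had 0 counts in all DMSO libraries, at their lower bounds. Wnt3a had 23, 28 and 31 counts in cultures 1, 2 and 3 at 3 µM. Against a floor of 3 counts over the group, that is at least 32.5-fold higher. Wnt7a had 14, 33 and 84 counts, which is at least 51.9-fold higher. Both passed the filter on low counts only through the 3 µM group, where they are high, so their calls, which are among the 5 higher, are no support and no p is given. Wnt3, named after its values were seen, was also at 0 in DMSO and ranged from 0.345 to 16.4 CPM at 3 µM, and it did not pass the filter. Wnt1 and Wnt8a were at 0 in both groups. Wnt5b, a ligand of β-catenin independent signalling, had a log2 fold change of −1.76 ± 0.307 (SE, adjusted p = 0.000816). These bounds cover counting error alone. With a filter at a mean of 50 counts, 4 ligands were called, against 59.7% of all genes. In the 7 lists, 0 genes were called at 1 µM in edgeR, against 0.242% of all genes.

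Of the genes with at least 50 counts on average (12429 compared), those closest to Fzd10 in log2 CPM over the 12 libraries were Rnf208 (Pearson r = 0.989), Ppp1r14c (r = 0.981) and Nop9 (r = 0.981). Ppp1r14c went from 4.92 ± 0.77 CPM in DMSO to 45.9 ± 8.09 at 3 µM. Closest to Fzd4 were Btd (r = 0.992), Mtfr1l (r = 0.989) and Rpl39l (r = 0.987), and Btd went from 49.6 ± 6.38 to 20.9 ± 2.23 CPM. Among the members, Fzd4 and Fzd8 had the highest r of any pair (0.96), ahead of Fzd1 and Fzd2 (0.91), and Fzd4 and Fzd10 were opposed (−0.93). These values describe 12 libraries that share 4 treatments and 3 cultures and carry no test.

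Promoter sequences of RefSeq (GRCm38.p6), from 250 bases before to 50 after the transcript start, were on hand for 6 members, Fzd1, Fzd4, Fzd5, Fzd7, Fzd9 and Fzd10. They were searched on both strands for CTTTGA, a core that TCF/LEF factors, the nuclear partners of β-catenin, bind. Among 32851 mouse promoters of 300 bases, 16.0% hold it. It was found in Fzd1 alone of the 6, once, starting 242 bases before the RefSeq start on the opposite strand. The longer CTTTGAT was found in none of the 6, against 3.7% of all promoters. No other form of the TCF/LEF site was searched for, so a stretch without capitals may still hold one. The stretches outside the annotated gene are shown for Fzd1 and Fzd4, which fell, and for Fzd7, which did not pass the test, with the core in capitals as it reads on the gene's strand (TCAAAG).
Fzd1, chr5:4758217-4758466, minus strand: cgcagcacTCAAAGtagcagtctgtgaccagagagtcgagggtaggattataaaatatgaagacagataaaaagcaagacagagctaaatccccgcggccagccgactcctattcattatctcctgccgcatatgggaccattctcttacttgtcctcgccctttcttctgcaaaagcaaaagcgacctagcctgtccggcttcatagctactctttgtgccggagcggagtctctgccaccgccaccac
Fzd4, chr7:89404116-89404354, plus strand: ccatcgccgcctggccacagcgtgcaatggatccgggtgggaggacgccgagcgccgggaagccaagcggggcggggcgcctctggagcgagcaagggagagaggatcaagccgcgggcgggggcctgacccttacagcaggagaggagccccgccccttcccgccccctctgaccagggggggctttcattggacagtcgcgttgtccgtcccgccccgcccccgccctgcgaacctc
Fzd7, chr1:59481897-59482146, plus strand: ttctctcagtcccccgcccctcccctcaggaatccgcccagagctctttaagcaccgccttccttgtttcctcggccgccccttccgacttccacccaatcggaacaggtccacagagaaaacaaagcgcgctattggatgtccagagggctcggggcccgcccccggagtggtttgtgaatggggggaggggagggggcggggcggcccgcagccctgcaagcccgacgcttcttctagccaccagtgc
Over the full 300 bases the GC content was 54.0% for Fzd1, 72.7% for Fzd4, 66.7% for Fzd7 and 77.7% for Fzd10, against a median of 52.7% over all promoters. A match is a description of the letters in this window and does not show a binding site.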

How the data were processed

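Bulk RNA sequencing counts from 12 mouse mammary organoid libraries (4 treatments, 3 cultures each) were used. Per the submitters' processing notes, TopHat2 2.1, Bowtie 1.1.0, HTSeq and DESeq2 were used with GRCm38/mm10, and the labels describe TruSeq stranded polyA libraries. The authors deposited raw counts per Ensembl gene and a log2 table, which equals log2 of counts scaled to 10 M per library plus 1 (0 values differed by over 1e-6). All tests used the counts. Of the gene IDs, 24918 were in GENCODE M21.

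Genes passing filterByExpr (15316) were fitted in edgeR 4.0.16 (R 4.3.3, glmQLFit robust, glmQLFTest, two-sided, TMM) with a mean per group over all 12 libraries, and p-values were adjusted by Benjamini and Hochberg. Slopes took DMSO as dose 0. CPM use TMM-scaled library sizes, and RPKM divide them by merged exon length in GENCODE M21. Alternatives were an animal block, DESeq2 1.42.0, other scalings and filters, pairwise fits and leaving out each library. For the comparisons of doses and the slopes, only the first of these took account of the animal.

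The replicate number is the animal. Same-numbered libraries deviated together in all 18 pairs (correlation 0.177 to 0.840, median 0.505). The 36 pairs that differ in number and group ran from −0.728 to 0.288 (median −0.212). Values were centred on group means, which ties these sets together, so their contrast is no independent test. The numbers were taken to pair the libraries, but the main fit had no animal block. The common biological coefficient of variation was 0.305, and 0.156 with the block. Replicates differed beyond sampling noise (chi-square per degree of freedom at least 13.2). Members and lists were chosen with earlier results of these data known. All members are described, and of each pathway list the 3 genes tested with the lowest p at 3 µM are named. For the rising and the falling member with the lowest slope p, the 3 genes with the highest correlation over libraries are named. Adgra2 and Adgre1 were matched by gene ID. Leaving culture 3 out, and the sums under other scalings, were added after seeing the data.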

Additional observations from a re-analysis of the deposited data

How the results depend on the processing

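The calls of Fzd4, Fzd8 and Fzd10 at 1.5 and 3 µM, and of Fzd9 at 3 µM, held under every alternative run. Counts of members called moved as follows. With the animal block 1 member was called at 1 µM (5.61% of all genes) and 5 at 1.5 µM (46.7%). The block called 5 from 1 to 1.5 µM (21.9%) and 8 from 1.5 to 3 µM (46.7%). It changed no call in the slope or at 3 µM against DMSO. DESeq2 called 1 at 1 µM (3.17% of all genes) and 6 from 1.5 to 3 µM (35%). In that last step library size alone gave 6 (1 higher, 5 lower; 32.1%), fitting the 2 groups alone 1 (18.5%) and leaving culture 3 out 5 (33.6%). Leaving out single libraries gave 5 to 8 members at 3 µM, against 48.9% to 60.7% of all genes. The count of 5, with culture 2 missing at 3 µM, stood against 48.9%. From 1 to 1.5 µM 0 to 3 were called (0.914% to 9.94% of all genes), and from 1.5 to 3 µM 1 to 6 (19.4% to 37%). For the culture difference 2 to 7 were called, against 17.1% to 37.9%. The causes were not tested.

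Scaling by library size alone moved the median of all genes at 3 µM from −0.03 to −0.23. Under that scaling the members called at 3 µM were 1 higher and 6 lower, and the split of all genes went from 4575 higher and 4239 lower to 3395 and 5404. At 1.5 µM that split went from 2364 and 1813 to 2890 and 1554. From 1.5 to 3 µM it went from 2601 and 1943 to 1050 and 3860, and for the slope from 4624 and 4284 to 3233 and 5157. Counts of all genes called moved by over 1.5 times in these settings, beside single libraries left out. They were, at 1 µM, 37 against 859 with the block, 485 in DESeq2 and 0 with 2 groups fitted (118 with culture 3 left out), at 1.5 µM 4177 against 7147 with the block, from 1 to 1.5 µM 831 against 3351 with the block, 1646 in DESeq2 and 494 with no filter, and from 1.5 to 3 µM 4544 against 7149 with the block and 2833 with 2 groups fitted. Leaving out single libraries moved them to as few as 6 at 1 µM, 2565 at 1.5 µM, 140 from 1 to 1.5 µM (as many as 1523 with culture 3 missing at 3 µM), 2974 from 1.5 to 3 µM and 2620 for the culture difference (4418 in the full fit). The test of slope by culture called 0 genes in edgeR, 2 with no filter and 231 in DESeq2.

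Sign changes occurred for values near 0 that passed no test. Fzd5 at 3 µM was −0.02 with DESeq2 size factors and in DESeq2, −0.20 with library size alone, −0.04 with no filter, −0.09 with a mean of at least 50 counts, −0.03 with 2 groups fitted and −0.06 with culture 3 left out. At 1.5 µM Fzd5 was −0.03 with a mean of at least 50 counts, and from 1.5 to 3 µM it was 0.00 with the block. Fzd3 at 1.5 µM was 0.05 with library size alone and 0.15 with culture 3 left out. Fzd10 at 1 µM was 0.06 with library size alone and 0.55 with culture 3 left out, where Fzd9 was −0.03. From 1 to 1.5 µM Fzd3 was 0.03 and Fzd5 0.06 with culture 3 left out. Over single libraries left out, log2 values at 1 µM ran from −0.17 to 0.38 (Fzd1), −0.02 to 0.40 (Fzd2), −0.09 to 0.23 (Fzd3), −0.04 to 0.19 (Fzd5), −0.07 to 0.60 (Fzd6), −0.22 to 0.27 (Fzd9) and −0.35 to 0.48 (Fzd10). At 1.5 µM they ran from −0.35 to 0.13 (Fzd2), −0.18 to 0.16 (Fzd3) and −0.12 to 0.24 (Fzd5), and at 3 µM from −0.14 to 0.10 (Fzd5). From 1 to 1.5 µM they ran from −0.24 to 0.11 (Fzd3), −0.20 to 0.15 (Fzd5) and −0.03 to 0.33 (Fzd7), from 1.5 to 3 µM from −0.23 to 0.12 (Fzd5), and for the slope from −0.05 to 0.01 (Fzd5). Depth limits Fzd9 and Fzd10 most, with 5 to 17 counts per library for Fzd9 at 3 µM and 2 to 19 for Fzd10 in DMSO.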
